A study of Rattus norvegicus with 2 samples.

Results

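The miR-29 family of the rat comprises 3 mature microRNAs (miRNAs, short RNAs that lower the output of messenger RNAs they pair with). They are rno-miR-29a, rno-miR-29b and rno-miR-29c, written miR-29a, miR-29b and miR-29c below. Members were the non-control array features whose name is exactly one of these 3, which are 3 of the 350 miRNAs and 6 of the 938 probes on the array. The study set squamous cell carcinoma of the rat tongue against normal rat tongue. The labels describe male Sprague-Dawley rats, 6 to 7 weeks old at the start, that were given 4NQO (an oral carcinogen) at 0.02 g/l, or distilled water alone, with 20 rats per arm, and tongue tissue was taken at the end of week 36. RNA came from 7 tumours and 7 normal samples. The data are 1 array labelled tumour and 1 array labelled normal. The labels do not say whether either held RNA of 1 animal or of several. Since each group has 1 array, the groups could not be tested against each other, and each error below is the spread of repeated spots within an array.

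The array labelled tumour gave more signal for all 3 miRNAs of the family, by unequal amounts. After each array was scaled to its own 75th percentile, miR-29c was 4.05-fold higher, miR-29a 1.66-fold and miR-29b 1.58-fold. The difference between miR-29c and miR-29a, 2.44-fold or 1.29 on the log2 scale, does not depend on a common scaling factor but does depend on the background correction (0.36 with normexp and an offset of 50). Those 2 miRNAs differ at 1 base. With the sign turned, as it would be if the labels of the arrays were exchanged, the 3 would be lower by the same amounts.

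As background, miR-29 miRNAs pair with messenger RNAs of fibrillar collagens, elastin and fibrillin, and of DNA methyltransferases, and they are known as restraints on matrix deposition. TGF-beta, a cytokine that drives fibroblasts to make matrix, lowers them in many tissues, and in skeletal muscle they are linked to myogenic differentiation. The family is transcribed from a pair of gene clusters, and mature miR-29b is made from both. In oral squamous cell carcinoma of humans, lower miR-29 is commonly reported.

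The mature strands are shown because the family shares 1 seed (bases 2 to 8, in capitals, counted from the 5′ end) and differs only downstream of it. The sequences are those of RefSeq on the rat assembly GRCr8, matched through the complement of each probe, while the array's own grid names build rn4.
miR-29a: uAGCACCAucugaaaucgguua
miR-29b: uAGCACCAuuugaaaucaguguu
miR-29c: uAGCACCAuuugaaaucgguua
From miR-29a to miR-29c the 1 substitution is C10U. From miR-29a to miR-29b there are 4 over 22 aligned bases, C10U, G18A, U21G and A22U, and from miR-29b to miR-29c there are 3, A18G, G21U and U22A. Thus miR-29c matches miR-29b up to base 17 and miR-29a from base 11 on.

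The 4 hairpin precursors show how the clusters are built, with the mature strand in capitals. The first cluster lies on the minus strand of chromosome 4 in GRCr8, with Mir29b1 at chr4:60618334-60618414 and Mir29a at chr4:60617955-60618042, and 291 bases between them. The second lies on the plus strand of chromosome 13, with Mir29b2 at chr13:109098831-109098911 and Mir29c at chr13:109099359-109099446, and 447 bases between them.
Mir29b1: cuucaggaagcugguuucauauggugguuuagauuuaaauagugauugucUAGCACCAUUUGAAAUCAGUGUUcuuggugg
Mir29a: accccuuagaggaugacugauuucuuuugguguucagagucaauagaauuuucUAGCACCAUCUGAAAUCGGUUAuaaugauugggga
Mir29b2: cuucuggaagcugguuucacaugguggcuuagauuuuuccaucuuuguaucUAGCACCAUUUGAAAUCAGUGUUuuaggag
Mir29c: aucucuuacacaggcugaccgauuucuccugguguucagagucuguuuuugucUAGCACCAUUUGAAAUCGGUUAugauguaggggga
The chromosome 13 cluster overlaps a long non-coding RNA gene in the RefSeq table, and Cd46, which encodes a complement regulator, is the next gene on its right. Hairpins matched across clusters more than within them. Mir29b1 and Mir29b2 were 80.7% identical and Mir29a and Mir29c 78.0%, against 67.0% for Mir29b1 with Mir29a and 63.2% for Mir29b2 with Mir29c. The miR-29b probes cannot separate the clusters, since the mature strands of Mir29b1 and Mir29b2 are the same.

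The 6 probes, written 5′ to 3′ as DNA, are complementary to all or all but the first few bases of each miRNA, and the capitals mark bases that tell the intended miRNA from at least 1 of the others.
miR-29a, 19 bases: TAacCgatttcaGatggtg
miR-29a, 20 bases: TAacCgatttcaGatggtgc
miR-29b, 21 bases: AACacTgatttcaAatggtgc
miR-29b, 22 bases: AACacTgatttcaAatggtgct
miR-29c, 21 bases: TAacCgatttcaAatggtgct
miR-29c, 22 bases: TAacCgatttcaAatggtgcta
Each miR-29a probe has 1 mismatch to miR-29c and each miR-29c probe has 1 mismatch to miR-29a, with 12 bases in a row still paired. The miR-29c probes have 3 mismatches to miR-29b, all toward the miRNA's 3′ end, which leaves 16 or 17 bases in a row paired. The miR-29b probes have 5 mismatches to miR-29a and 4 to miR-29c, counting base 23, which the shorter miRNAs lack. How much signal of 1 member reaches another member's probes was not tested. Probes differ in how brightly they report the same RNA, so members are compared here by the ratio of each probe between the arrays, not by their levels.

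miR-29a, from the chromosome 4 cluster, was measured by 2 probes. On its 20-base probe the 10 spots of the array labelled tumour ran from 1297 to 1479 intensity units with a median of 1432, and the 10 of the array labelled normal ran from 381 to 455 with a median of 444. After division by the arrays' 75th percentiles, 525.6 and 277.5 intensity units, the means were 2.67 ± 0.130 and 1.55 ± 0.0975 (SD of 10 spots each). Spots of this probe did not overlap between the arrays, before or after scaling. Its 19-base probe had scaled means of 0.733 ± 0.00786 (SD, 8 spots) and 0.459 ± 0.0255 (SD, 9 spots), again with no overlap. The log2 ratios were 0.78 on the longer probe and 0.68 on the shorter one, a gap of 0.11. Their mean was 0.73 with a spot SE of 0.02, which is short of 2-fold.

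miR-29b, whose mature strand comes from both clusters, had the smallest ratio of the family. On the 22-base probe the array labelled tumour had a median of 702 intensity units (660 to 738, 10 spots) and the array labelled normal 239 (220 to 248, 9 spots). The scaled means were 1.33 ± 0.0536 and 0.849 ± 0.0357. On the 21-base probe they were 0.637 ± 0.0182 and 0.403 ± 0.0171 (SD, 10 and 9 spots). Spots of the arrays did not overlap on either probe, and the probes gave nearly 1 value, log2 ratios of 0.65 and 0.66. The miRNA's log2 ratio was 0.66 with a spot SE of 0.02.

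miR-29c, from the chromosome 13 cluster, stood apart. On the 21-base probe the array labelled tumour ran from 237 to 268 intensity units with a median of 252, and the array labelled normal from 27.6 to 36.4 with a median of 32.6 (10 spots each). On the 22-base probe the medians were 277 (263 to 290) and 37.7 (26.4 to 41.6). Scaled means were 0.480 ± 0.0202 and 0.117 ± 0.0115 on the shorter probe, and 0.530 ± 0.0167 and 0.132 ± 0.0167 on the longer one. The dimmest scaled spot of the array labelled tumour was 3.44 times the brightest of the array labelled normal on the shorter probe and 3.34 times on the longer one. The log2 ratios were 2.03 and 2.01, with a mean of 2.02 and a spot SE of 0.04. At matched spot positions all 20 miR-29c pairs of spots were at least 2-fold apart after scaling, while 0 of 17 for miR-29a and 0 of 18 for miR-29b were, although all of these were above 0. These counts depend on the scaling, since the probe means of miR-29a and miR-29b had log2 ratios of 1.57 to 1.70 without it. Spots of 1 pair of arrays are not replicate samples.

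**Figure D1:**
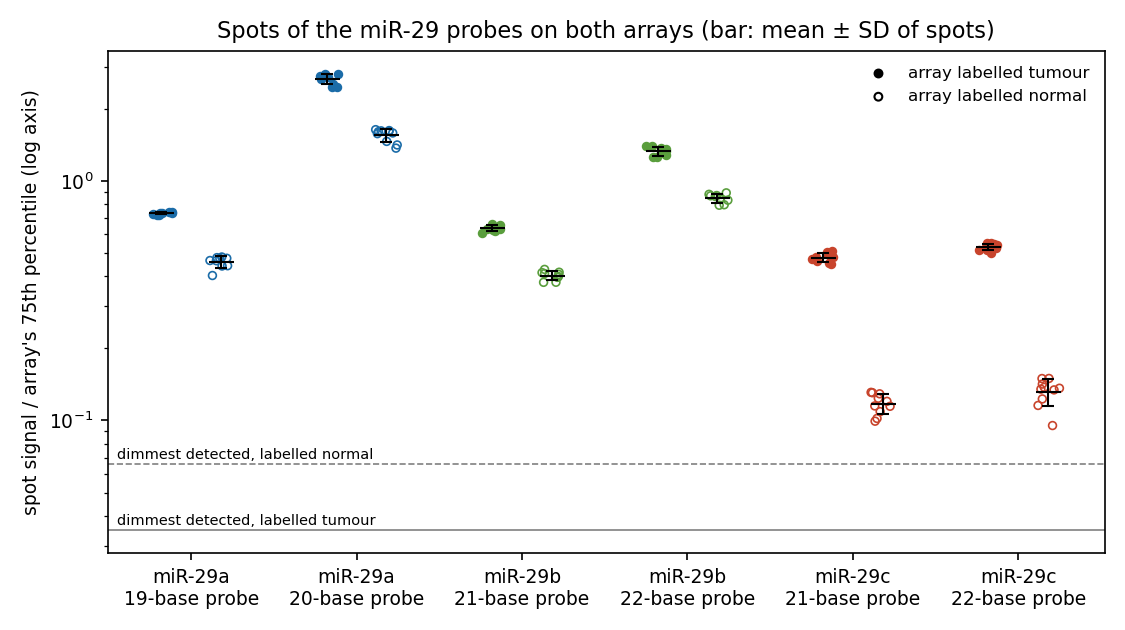
Each point is 1 spot's signal divided by its array's 75th percentile, on a log axis, for the 6 miR-29 probes on the array labelled tumour (filled) and the array labelled normal (open); bars are the mean and SD over spots, and grey lines mark the dimmest detected probe of each array. Filled and open points do not overlap on any probe, and heights of different probes are not comparable.

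A member was called where its ratio reached 2-fold. Of the 3 members, 1 was called higher on the array labelled tumour and 0 lower. Both arrays measured 85 miRNAs, of which 11 were called higher, or 12.9%, and 19 lower, or 22.4%. The family's median log2 ratio was 0.73 and that of all 85 miRNAs was -0.46. miR-29c ranked 4th from the highest of the 85, miR-29a 16th and miR-29b 20th. With the sign of every ratio turned they would rank 82nd, 70th and 66th, 1 of the 3 members would be called lower and 0 higher, and the shares called higher and lower would change places. Under a call of 2-fold the count of members depended on the scaling. Without scaling the ratios were 7.67-fold for miR-29c, 3.14-fold for miR-29a and 2.98-fold for miR-29b, so all 3 were called, against 32.9% of the 85 called higher and 5.88% lower, and the median of all 85 was 0.46. With normexp background correction and an offset of 50, which adds a constant to every spot, 0 of 3 were called, against 3.53% higher and 9.41% lower, and miR-29c was at 0.97. The sign of each member was positive under all 23 other ways of processing.

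**Figure D2:**
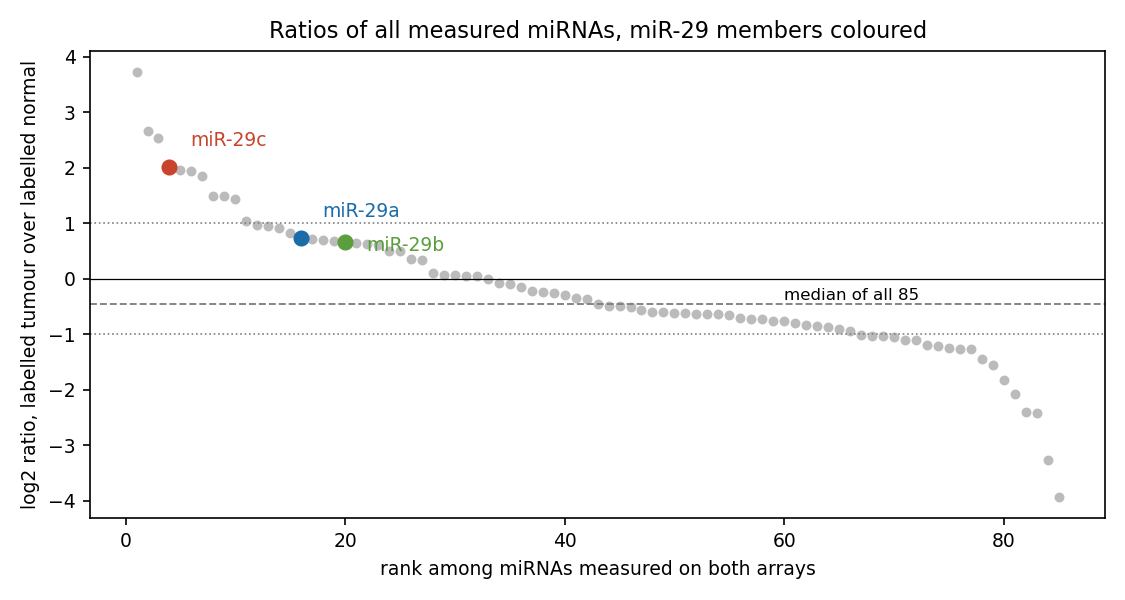
Log2 ratios, labelled tumour over labelled normal, of the 85 miRNAs measured on both arrays are plotted in order of rank, with dotted lines at 2-fold and a dashed line at the median of -0.46. miR-29c sits at 2.02, at rank 4, while miR-29a (0.73) and miR-29b (0.66) sit close together at ranks 16 and 20.

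The miRNAs nearest to the members in ratio, over these 2 arrays, were as follows. For miR-29c they were miR-30e (1.96), miR-30a (1.94) and miR-378 (1.85), the last of which is abundant in muscle. For miR-29a they were miR-99a (0.71), miR-195 (0.70), a member of the miR-15 and miR-16 seed family, and miR-126 (0.68), a miRNA of endothelium. For miR-29b they were miR-30b-5p (0.65), miR-126 and miR-322 (0.63). With 1 ratio per miRNA, likeness here means only that the ratios were close.

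A common scaling factor cancels in the differences between members, while a constant added to every spot does not. miR-29c exceeded miR-29a by 1.29 on the log2 scale with a spot SE of 0.05, and its 2 probes exceeded the 2 miR-29a probes by 1.22 to 1.35 in the 4 pairings. It exceeded miR-29b by 1.36 with a spot SE of 0.04, or 2.57-fold, and by 1.35 to 1.38 over the probe pairings. With normexp and an offset of 50 these differences were 0.36 and 0.50, and with an offset of 0 they were 1.0 and 1.1. As reported, both differences are larger than the gaps between probes of 1 miRNA, which were 0.02 for miR-29c, 0.11 for miR-29a and at most 0.33 over all 55 miRNAs with more than 1 measured probe. The ratio of miR-29b minus that of miR-29a was -0.07, which in size is less than the gap between the miR-29a probes. Within the chromosome 4 cluster the ratios were therefore close, and within the chromosome 13 cluster they were 1.36 apart, but the share of mature miR-29b that came from each cluster was not measured.

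Set beside other miRNAs of near-identical sequence, the difference between miR-29a and miR-29c was wide. Among measured miRNAs matched to 1 RefSeq mature sequence, 76 of the 85, there were 10 pairs that differ by 1 base and have the same length. All 10 shared a seed. Among these 10, the pair of miR-29a and miR-29c had the largest difference in log2 ratio, 1.29. It was followed by let-7a with let-7e (0.59, U9G) and miR-27a with miR-27b (0.55, C19U). The other 9 pairs had a median of 0.06, and miR-30a with miR-30e, which differ by C13U, were 0.01 apart. The pairs draw on 17 miRNAs, let-7a being in 3 of them, so they are not independent. Measured miRNAs without such a match are in none of the pairs. Among those is miR-30d (0.49), by name a relative of miR-30a (1.94). Their ratios lay further apart than those of miR-29a and miR-29c. Their sequences were not compared here, so a wider pair outside the 10 is possible. Under the 23 other ways of processing miR-29a with miR-29c kept the largest difference of the matched pairs in 21. It ranked 2nd with no filter on dim probes and 5th with normexp and an offset of 50.

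Pairs that share a cluster were compared in the same way. The same matched miRNAs gave 27 pairs with hairpins at most 10 kb apart on 1 strand. Of these, miR-29b with miR-29c had the second largest difference, behind miR-133b with miR-206 (1.75), and miR-29a with miR-29b (0.07) ranked 21st. The 25 pairs outside the family had a median difference of 0.27. Several miRNAs in these pairs, miR-29b among them, are also made from a second locus.

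**Figure D3:**
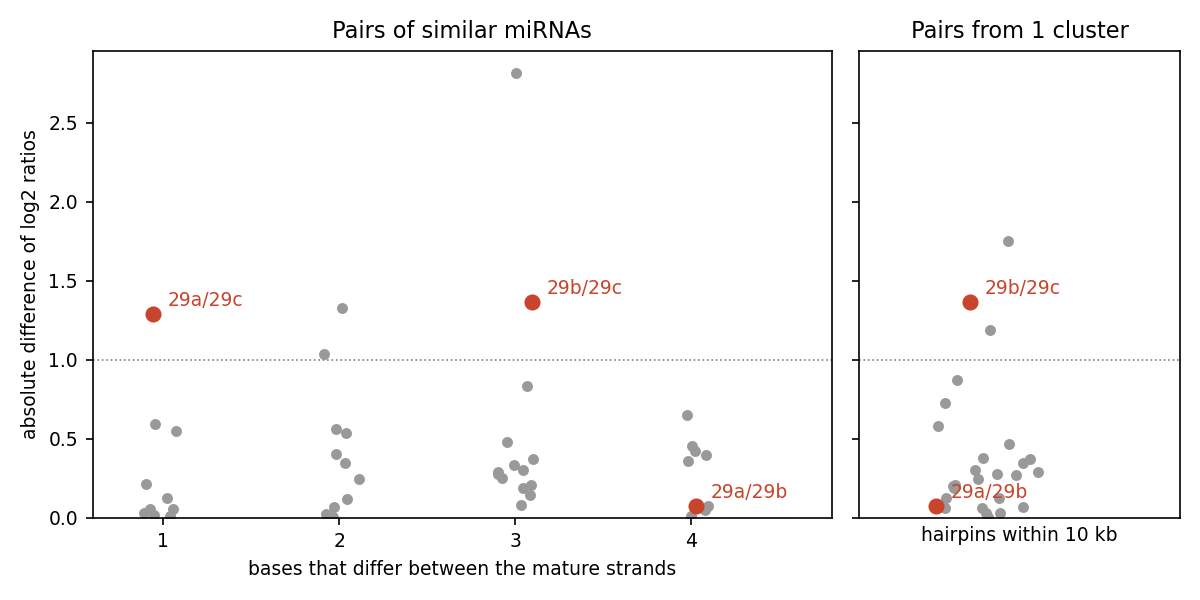
Absolute differences in log2 ratio are plotted for pairs of measured miRNAs by the number of bases that differ between their mature strands (left) and for pairs with hairpins within 10 kb on 1 strand (right), with miR-29 pairs in red and a dotted line at 2-fold. Only miRNAs matched to 1 RefSeq mature sequence are included. The pair 29a/29c, at 1.29, lies above the other 9 pairs that differ by 1 base, whose highest is 0.59, and 29b/29c, at 1.36, is second among cluster pairs.

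The ratio of miR-29c was the one that moved most with shifts of the background. Spot CVs of miR-29c on the array labelled normal were 9.83% and 12.6%, and those of the other 4 probes there were at most 6.27%. All 20 of its spots there were well above background. Its probe means there were only 1.79 and 2.01 times the dimmest detected probe, against 6.14 to 23.7 times for the other 4 probes. Raising every signal of that array by 1 SD of its negative control spots, 3.02 intensity units, gave a log2 ratio of 1.91 for miR-29c, and lowering it by as much gave 2.13. The same shifts gave 0.72 and 0.74 for miR-29a, and 0.64 and 0.67 for miR-29b.

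The passenger strands, the other arm of each hairpin, are not members, but miR-29b-1* and miR-29b-2* come from 1 cluster each. The array had 14 probes for miR-29a*, miR-29b-1*, miR-29b-2* and miR-29c*, and 0 of them passed the detection rule (more than 50% of spots well above background) on either array. miR-29c* came nearest. On its 21-base probe 5 of 10 spots of the array labelled tumour were well above background, with 15.4 to 25.4 intensity units and a mean of 19.7, and 0 of 10 on the array labelled normal, with -1.74 to 11.4 and a mean of 4.97. The spots of that probe did not overlap before scaling and did overlap after it. Its 20-base probe had means of 10.2 (SD 2.30, 9 spots) and -0.44 (SD 3.63, 10 spots). In the deposited values miR-29c* was at 19.8 on the array labelled tumour, where the scanner software marked it as detected, and at 3.0 on the array labelled normal, where it did not. No fold is given, since neither array passed the rule used here. The probes of miR-29a* and of both miR-29b passenger strands had means between -3.91 and 6.04 intensity units, and the single spot well above background among them was a miR-29b-1* spot on the array labelled normal. A comparison of the clusters through their miR-29b passenger strands was therefore not possible at this signal.

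Other miRNAs that the field links to fibrosis, TGF-beta or matrix genes lay on both sides. Of 24 listed, 22 were on the array and 17 were measured on both arrays. At least 2-fold higher were 3 of 17 and at least 2-fold lower were 5 of 17, beside 12.9% and 22.4% of all measured miRNAs, and 9 lay between. Without scaling these counts were 7 and 1, beside 32.9% and 5.88%. Their median of -0.46 equals that of all 85 miRNAs. The 3 higher ones were miR-133a (2.53), a muscle miRNA that also pairs with collagen mRNA, miR-30c (1.49) and the lymphocyte miRNA miR-150 (1.43). The 5 lower ones were miR-21 (-3.26), which is raised in fibroblasts of scarred tissue, miR-199a-5p (-1.56) and miR-214 (-1.44), which share a transcript in mesenchymal cells, miR-141 (-1.26) and miR-15b (-1.05). miR-26a (0.96) and miR-26b (0.96), which have also been linked to collagen, were just short of 2-fold, above miR-29a and miR-29b.

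The measured markers of skeletal muscle, like the miR-29 members, had ratios above 0. All 7 listed muscle miRNAs were on the array, and the 5 measured ones lay between 0.91 and 3.72. Summed over the same probes on each array, their scaled signal was 19.5 for the array labelled tumour against 3.18 for the one labelled normal, a 6.13-fold difference, and all 5 were above 0 without scaling too. The other 2, miR-208 and miR-499, were detected on neither array. The other lists are read beside all 85 miRNAs, of which 32 were above 0 after scaling and 65 without it. Of the stromal list 4 of 5 were measured and 1 was above 0, with summed signals of 1.46 and 2.04, but without scaling 2 of 4 were above 0 and the summed signal was 1.36 times as high on the array labelled tumour. Of the epithelial list 9 of 10 were measured and all 9 were below 0, with summed signals of 4.15 and 7.12, but without scaling 5 of 9 were above 0 and the summed signal was 1.10 times as high on the array labelled tumour. Scaling on positive control features also put both sums higher on the array labelled tumour, and the 75th percentile over all probes left the stromal sums nearly equal. Of 6 leukocyte markers 5 were on the array and 4 were measured, with summed signals of 0.585 and 1.24. A 2-fold or larger drop was seen in 3 of the 4 after scaling and in 1 without it, beside 22.4% and 5.88% of all measured miRNAs. The remaining marker, miR-150 (1.43), went the other way. At least 2-fold higher was 1 of the 4 after scaling and 1 without it, beside 12.9% and 32.9% of all measured miRNAs. The part of any cell type in the miR-29 ratios was not tested, and in tissue a changed share of cells and a changed level per cell cannot be told apart. Epithelial and muscle miRNAs were detected on both arrays, as the tissue label implies. In oral carcinoma miR-21 is usually described as raised and miR-29 as lowered, the reverse of both directions here. Each direction and rank given here rests on the labels of the 2 arrays, and an exchange of them was not tested.

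**Figure D4:**
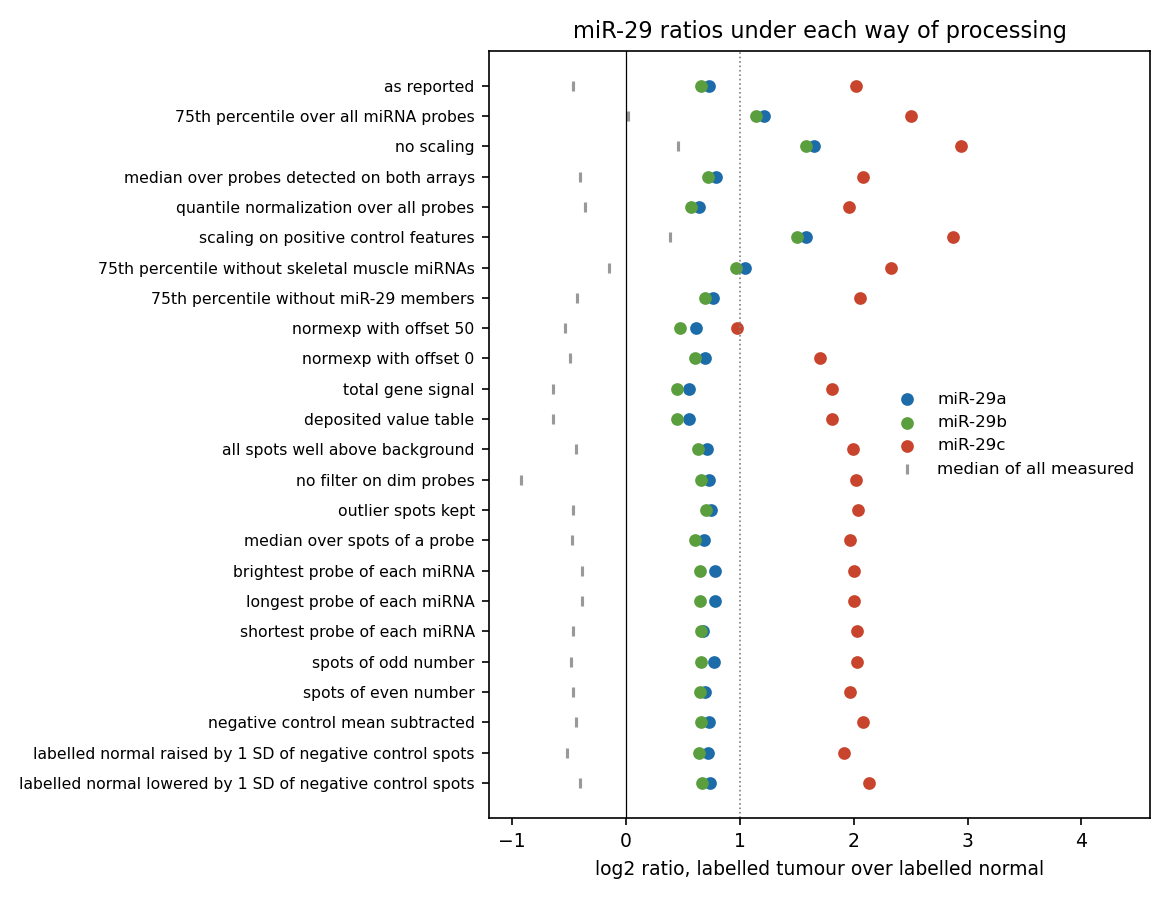
Log2 ratios of the 3 members are shown for the values as reported and for the 23 other ways of processing, with a grey tick at the median of all measured miRNAs and a dotted line at 2-fold. miR-29c lies right of the other members in every row, from 0.97 with normexp and an offset of 50 to 2.94 without scaling, and the 3 members shift by nearly the same amount under each scaling.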

How the data were processed

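Cy3-labelled RNA was hybridised to 1-colour Agilent miRNA arrays, 1 per group. The deposited spot intensity values come from Feature Extraction, version 10.5.1.1 per the file headers, which subtracted background and detrended each array but did not normalize the pair. The deposited value table holds the same software's total gene signal as linear, uncentred intensity, floored at 1 (equal within a relative tolerance of 0.001 in 395 of 395 rows on each array, with medians of 1.70 for the array labelled tumour and 1.32 for the array labelled normal). Per the file headers, other columns are 0 or 1 flags. The labels name a labelling kit for messenger RNA, and no source used here gives the labelling of the miRNA.

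Spots marked as outliers were left out and the spots of a probe averaged. A probe was detected if over 50% of its kept spots had the software's flag for well above background (175 probes on the array labelled tumour, 149 on the array labelled normal). Signals were divided by the array's 75th percentile, taken over the 140 probes that both arrays detected, with a floor at the dimmest detected probe, and log2 was taken. A miRNA is the mean of its probes detected on both arrays. At least 2-fold is a rule of size, not a test. No spot was saturated (0 on either array), and the number of arrays limits the precision. Median spot CVs were 5.20% and 6.33%.

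The members, the lists and the comparisons were chosen with earlier results of these data known. The miRNAs named are the members, their passenger strands, the 3 nearest in ratio per member, any measured miRNA of the fibrosis list and at most 4 measured ones of each other list. Outside this rule, the undetected muscle miRNAs and the pairs and seed families of similar or neighbouring miRNAs were named after their values were seen. Similar pairs were aligned without gaps from the 5′ end. Of 350 names, 304 matched 1 RefSeq mature sequence (GRCr8). The steps were tested on simulated data for the comparison of the arrays, made from the array labelled normal with 200 of 350 miRNAs changed. All 34 measured miRNAs with a planted log2 change of at least 1.5 were recovered and 0 of 40 unchanged ones called, after removing a shift of -0.23 left by the scaling. That shift was taken from the miRNAs known to be unchanged, which real data do not give, so the run checks the steps only. Smaller planted changes, nearer the ratios of miR-29a and miR-29b, are not part of this count. Tools were Python 3.11.15, numpy 2.4.6, pandas 2.3.3 and limma 3.58.1 (normexp). Of the alternatives, 20 were planned and 3, which shift the background, were chosen after seeing the data.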

Additional observations from a re-analysis of the deposited data

How the results depend on the processing

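Log2 ratios are given in the order miR-29a, miR-29b, miR-29c, and the family median is the value of miR-29a throughout. With the 75th percentile over all probes they were 1.21, 1.14 and 2.50, without scaling 1.65, 1.58 and 2.94, and on positive control features 1.58, 1.51 and 2.87, with 3 members at least 2-fold higher each time. With muscle miRNAs left out of the percentile they were 1.04, 0.97 and 2.33, with 2 members at least 2-fold higher. With normexp and an offset of 50 they were 0.61, 0.48 and 0.97, with 0 members, and miR-29c exceeded miR-29a by 0.36 and miR-29b by 0.50. With an offset of 0, miR-29c was at 1.70 and those differences were 1.0 and 1.1, so the offset accounts for part of the drop. The total gene signal and the deposited value table both gave 0.55, 0.45 and 1.81. Quantile normalization took miR-29b to 0.57. The other values moved by less than the spot SD (0.10, 0.08 and 0.18 for the members), among them all 23 of the difference between miR-29b and miR-29a. miR-29c was the highest member in all 23 and ranked 3rd to 6th among all measured miRNAs. With 1 array per group no alternative replaces replicate samples. No paired analysis was possible because each group has 1 array.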

Other observations

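Other families that share a seed place the spread within miR-29. Of the 85 measured miRNAs, 76 were matched to 1 RefSeq mature sequence, and these held 14 seed families of at least 2 matched members. Measured miRNAs without a match are left out, among them miR-30b-5p (0.65), miR-30d (0.49) and miR-99a (0.71). Their relatives by name miR-30a (1.94) and miR-99b (-1.21) were matched, so the ranks, ranges and counts below could differ with every measured miRNA included. If the unmatched miRNAs share the seed of these relatives, miR-30 and miR-99 would each span more than miR-29. By range the miR-29 family would then rank below 3rd. The range of log2 ratios within the miR-29 family, 1.36, was the 3rd widest of these 14. It came behind miR-1 with miR-206 (2.82) and the family of miR-15b, miR-16, miR-195, miR-322 and miR-497 (1.75). The median range over the 14 was 0.51. In 6 families, miR-29 among them, every matched member was above 0, in 6 every matched member was below 0, and 2 were mixed. Without scaling these counts were 12, 1 and 1. By median ratio miR-29 ranked 5th. These counts describe 2 arrays, and members of a family can share signal through similar probes.

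miR-16 and miR-195, which differ at 2 bases over their aligned length, were 1.33 apart with opposite signs (-0.62 and 0.70) after scaling. This is the widest difference among the 11 pairs that differ at 2 bases, and close in size to that of miR-29a with miR-29c. miR-146a with miR-146b, also 2 bases apart, differed by 1.04. RefSeq lists further miRNA hairpins, Mir3556a and Mir3587, on the strand opposite to Mir29a and Mir29b1. It also lists Mir3556b, which overlaps the span of the chromosome 13 cluster. These further hairpins were not analysed here.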
